A study of Mus musculus with 2 samples.

Results

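The genes described here encode nuclear-made subunits of the 4 respiratory chain complexes and of ATP synthase, the enzymes of oxidative phosphorylation. They were chosen by symbol among the genes on the array, as those beginning with Nduf (complex I), Sdh (complex II), Uqcr (complex III), Cox4 to Cox8 (complex IV) or Atp5 (ATP synthase). Assembly factors named Sdhaf or Ndufaf and the isoforms Cox7a1 and Cox8b were left out of the list. Cyc1, which encodes cytochrome c1 of complex III, has another symbol beginning and is not on it. This gave 82 of 18952 genes, of which 37 belong to complex I, 4 to complex II, 8 to complex III, 16 to complex IV and 17 to ATP synthase. No measured value entered this rule, but the list was chosen with earlier results of these data known.

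The study set ARR2PB-miR32 transgenic animals against wild-type animals, all FVB/N and 6 months old, by the RNA of their dorsolateral prostates. In the transgene, ARR2PB (a composite of probasin promoter elements) drives miR-32, a microRNA, in prostate epithelium under androgen control. The RNA of 6 mice was pooled for each genotype, and the transgenic and wild-type pools shared each of 2 arrays on 1 slide. Array 1 had the transgenic RNA in Cy3, and array 2 had it in Cy5. Since the arrays repeat 1 pair of pools, they count as 1 replicate, genotype could not be tested, and each ± is the SD over the 2 arrays. Ratios are log2 of transgenic over wild type, after loess normalization over each whole array unless another normalization is named.

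Complexes I and II feed electrons from NADH and succinate into the ubiquinone pool, complex III passes them to cytochrome c, and complex IV reduces oxygen. Complexes I, III and IV pump protons across the inner mitochondrial membrane, and ATP synthase uses the returning protons to make ATP. Prostate epithelium, in man and rat, is known for secreting citrate, which leaves less of it for the mitochondrial oxidation that supplies this chain. The microRNA that the transgenic epithelium was made to express is shown first, with its seed (bases 2 to 8) in capitals, as given by RefSeq for GRCm38.p6 at chr4:56895272-56895293, minus strand.
mmu-miR-32-5p: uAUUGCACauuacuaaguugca

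Cy3 signals were well above background at 58.3% of spots for the transgenic pool on array 1 and at 57.0% for the wild-type pool on array 2. Cy5 signals were above it at 21.1% of spots for the transgenic pool on array 2 and at 42.1% for the wild-type pool on array 1. Detection required a signal well above background for either pool on both arrays, which held for 10434 genes. All 9 prostate markers examined were detected, among them Pbsn (probasin) and Tgm4 (a prostate transglutaminase), and 4 of the 9 (Spink1, Sbp, Msmb and Hoxb13) were at least 1.5-fold lower in the transgenic pool on each array, against 1.3% of detected genes. None of the 9 passed as higher, and 2 were above 0 by mean, Pbsn (-0.32 and 1.39 on arrays 1 and 2) and Tgm4 (0.25 and 1.16). After the local normalization described below, and in the scanner software's ratios, 3 of the 9 passed as lower. Msmb, a secreted seminal protein, then had -0.90 and -0.05 and, in the software's ratios, -0.87 and -0.38.

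Transcripts of nearly all the listed nuclear-made subunits were detected in the prostate. Of the 82 subunit genes, 78 were detected, against 10434 of all 18952 genes. Above background in both pools on both arrays were 76 of the 82, against 6046 of all genes. All 37 genes of complex I, 4 of complex II, 8 of complex III and 17 of ATP synthase were detected, and the 4 genes that were not were all forms of complex IV subunits known from other tissues. For Ndufb5 and Cox6b2 the transgenic pool was above background on 1 array only, and the wild-type pool on 2.

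The size rule asks that both arrays show at least 1.5-fold in 1 direction. Subunit transcripts passed it at about the share of all detected genes, so the counts do not set them apart. No member was at least 1.5-fold higher in the transgenic pool on each array, against 0.91% of all detected genes. One, Ndufa10, was at least 1.5-fold lower on each array, against 1.3% of all detected genes. The median log2 ratio of the 78 members was 0.04 (0.05 on array 1 and -0.08 on array 2), and that of all 10434 detected genes was -0.06. By the mean of the arrays 72 of 78 members lay within 1.5-fold of equality, a count not made for all detected genes. By complex, the medians were -0.0032 for complex I, -0.14 for complex II, 0.20 for complex III, 0.11 for complex IV and 0.09 for ATP synthase. The medians of single arrays spread about these by SDs of 0.14, 0.54, 0.24, 0.11 and 0.11 in the same order, so that no complex stood off 0 by more than its spread over the arrays except complex IV, whose median exceeded its SD by little. In bulk tissue, fewer cells of a type and less RNA per cell cannot be told apart.

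The arrays did not repeat each other gene by gene, and for these genes the disagreement followed the position of the spot. Only 30 of 78 members had the same sign on both arrays, a share not counted for all detected genes. On array 1 alone, 13 were at least 1.5-fold higher and 2 lower, against 8.1% and 5.35% of detected genes. On array 2 alone, 5 were higher and 21 lower, against 5.21% and 15%. A set of 8 members was at least 1.5-fold higher on array 1 and at least 1.5-fold lower on array 2, against 2.7% of all detected genes, and 0 members did the opposite, against 0.345%. These were Ndufs1, Ndufs4, Ndufs7, Ndufa6, Ndufa12, Cox6c, Atp5j and Atp5k. The 24 members printed in the higher-numbered rows of the array (above row 266 of 532) had a median log2 ratio of 0.64 on array 1 and -0.67 on array 2. The 54 members in the lower-numbered rows had -0.08 and 0.21. Other detected genes of like intensity showed the same pattern with position, at 0.31 and -0.40 in the higher-numbered rows (212 genes) and -0.19 and 0.20 in the lower-numbered rows (321 genes). Across the 65 members with at least 5 neighbouring spots of like intensity, the member's ratio and the median of its neighbours had a correlation of 0.85 on array 1 and 0.88 on array 2. This correlation is across genes that share a slide and its dyes, and it is given as a description.

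A group of 7 members lay in another region of array 2, at rows 190 to 285 and columns from 68, that was picked out after the values were seen. They were Ndufa10, Ndufa9, Ndufa11, Ndufa4, Ndufb5, Sdha and Atp5b, and all 7 were at least 1.5-fold lower on array 2, with a median of -1.19. The 194 other genes there with a mean log2 intensity of at least 8 had a median of -0.94 on that array, and 140 of them were at least 1.5-fold lower. In the same rows outside the region, 805 genes had a median of -0.03. The 6 lowest mean ratios of the list were all those of members in this region.

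Each array was accordingly also normalized by loess within 70 blocks of 38 rows and 17 columns, a setting chosen after the data were seen. The median SD over arrays of a member's ratio then fell to 0.118, against 0.367 with loess over the whole array. For all detected genes it fell to 0.177, against 0.283. These ratios are what remains after a curve is fitted to the spots of each block, so part of the fall can be built in. How far the block loess drew members towards 0 was not tested, and it was not run on simulated data. Within 1.5-fold lay 77 of 78 members by the mean and 70 on both arrays, counts not made for all detected genes. No member passed the size rule in either direction, against 0.795% of detected genes higher and 1.06% lower. The member median became 0.0030 and that of all detected genes -0.04. By complex the medians were 0.01 for complex I, -0.16 for complex II, 0.06 for complex III, 0.05 for complex IV and -0.01 for ATP synthase. The members' ratios still did not correlate between the arrays, with a Pearson r of -0.016 and a Spearman rho of 0.050 across the 78 genes. Across all detected genes these were 0.26 and 0.22. With loess over the whole array they were -0.37 and -0.33 for the members, and -0.027 and -0.12 for all detected genes. All are given as a description. Below, values after this loess are called block-normalized and stand beside the array-wide ones.

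**Figure D1:**
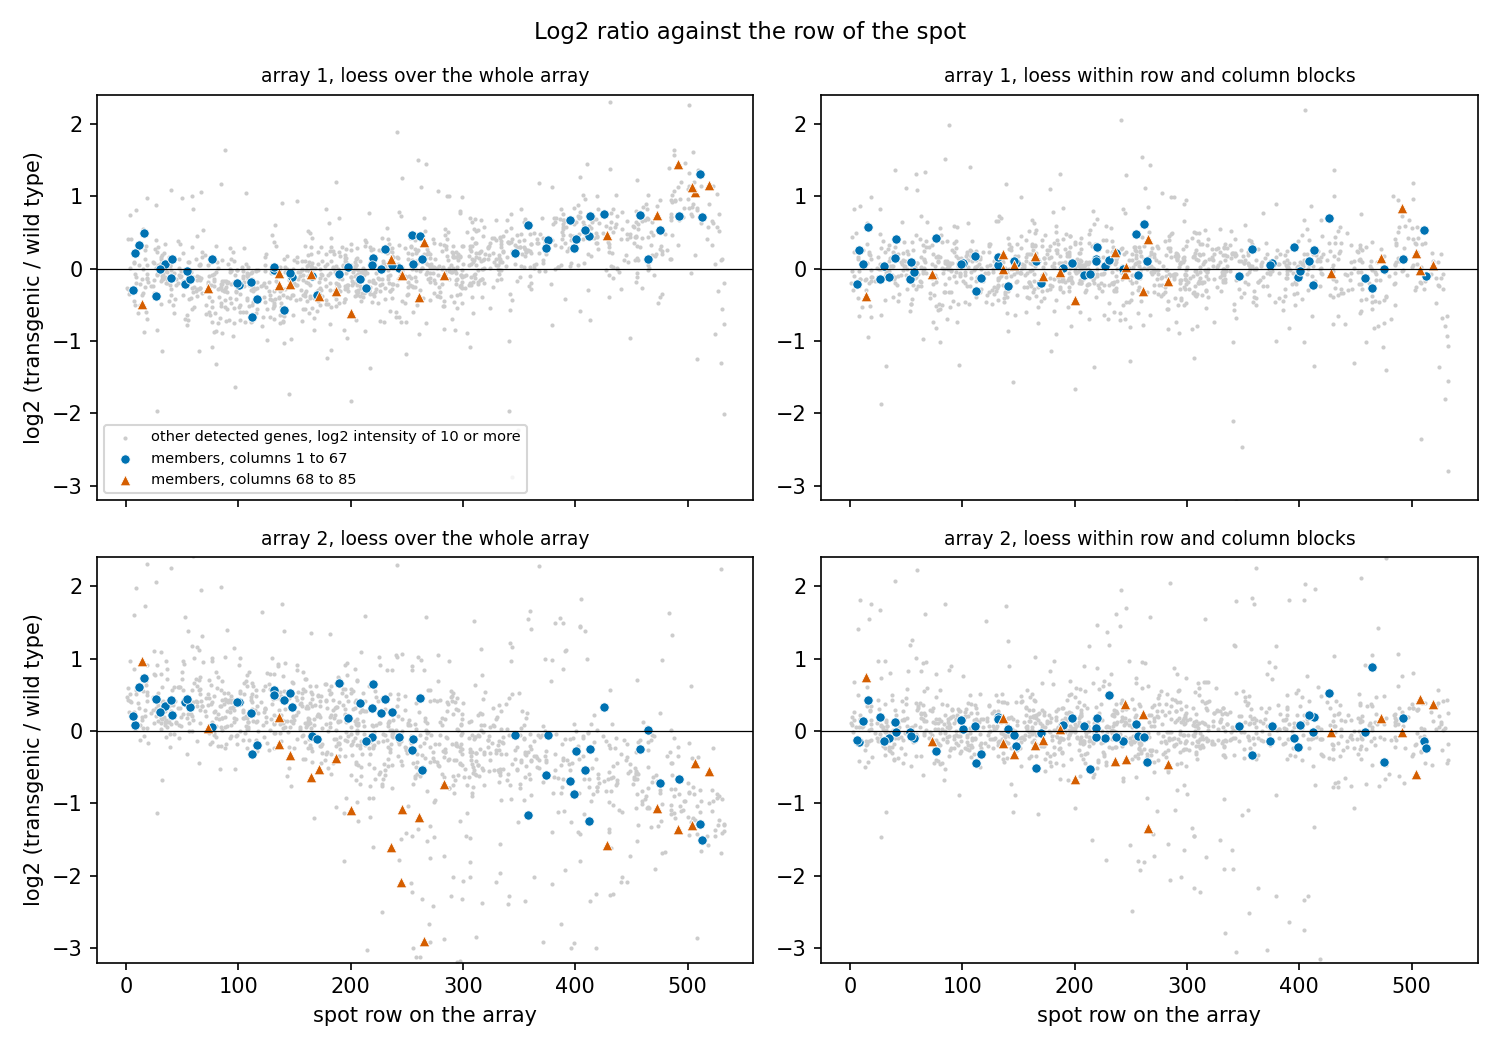
Log2 ratio of transgenic over wild type against spot row on array 1 (top) and array 2 (bottom), after loess over the whole array (left) and within blocks (right). Coloured symbols are the 78 detected members, split at column 68, and grey points are other detected genes with a mean log2 intensity of 10 or more. With whole-array loess the members climb with row number on array 1 and decline on array 2, and the members at high column numbers near rows 190 to 285 sit lowest on array 2; after block loess both courses flatten.

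**Figure D2:**
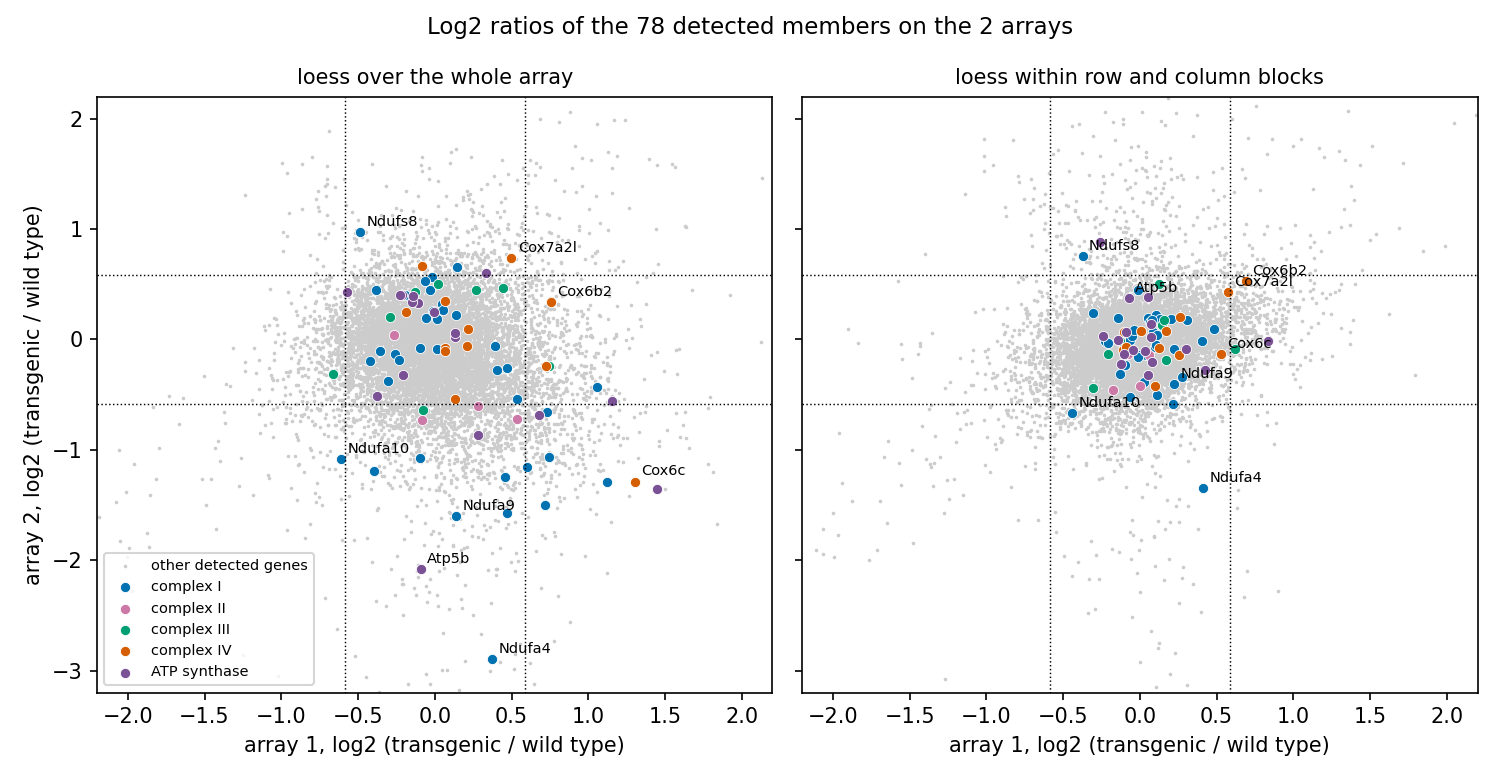
Log2 ratio on array 1 (horizontal) against array 2 (vertical) for the 78 detected members by complex and for other detected genes (grey), after loess over the whole array (left) and within blocks (right). Dotted lines mark 1.5-fold, and with whole-array loess only Ndufa10 lies beyond them in the same direction on both arrays, while 8 members lie at the lower right; after block loess no member passes on both.

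Complex I, the NADH dehydrogenase, held the one gene past the size rule. Ndufa10, an accessory subunit of the membrane arm, had normalized log2 signals of 8.48 and 7.82 in the transgenic pool on arrays 1 and 2, against 9.09 and 8.91 in the wild-type pool. Both transgenic values lay below both wild-type values. Its log2 ratios were -0.61 and -1.09, a mean of -0.85 ± 0.34 (SD, 2 arrays) and 1.80-fold lower. The transgenic pool's net intensity on array 2 was 31.5, against 631 for the wild-type pool, so that value rests on a weak Cy5 signal. Block-normalized, the ratios were -0.44 and -0.67, and in the scanner software's own log ratios they were -0.41 and -0.57. Ndufa10 was thus lower on each array in all 3, the lowest member by block-normalized mean (-0.55), but in the block-normalized and the software's ratios it did not reach 1.5-fold on each array. Ndufa10 stands in the region of array 2 described above, where 140 of the 194 other genes counted were also at least 1.5-fold lower. Its neighbours on the slide had medians of -0.19 on array 1 and -0.51 on array 2. Its RefSeq promoter (250 bases before to 50 after the start, GRCm38.p6, chr1:92473709-92474008, minus strand) is shown because this is the one called gene, and it holds none of the 4 motifs described further on, so no letters are in capitals.
Ndufa10: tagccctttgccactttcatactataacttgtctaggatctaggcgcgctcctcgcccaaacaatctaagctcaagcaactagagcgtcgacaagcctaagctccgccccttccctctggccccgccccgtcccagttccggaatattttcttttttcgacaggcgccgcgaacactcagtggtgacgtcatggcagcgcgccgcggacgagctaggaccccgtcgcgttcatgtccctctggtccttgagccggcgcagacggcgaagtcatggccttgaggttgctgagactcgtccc

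The 7 core subunits of complex I, which carry the flavin and the iron-sulfur clusters from NADH to ubiquinone, had a median of -0.08, and -0.05 block-normalized. Ndufv1 and Ndufv2, of the NADH-binding module, had mean ratios of 0.12 ± 0.19 and -0.21 ± 0.03. Ndufs1, the largest iron-sulfur subunit, had ratios of 1.12 on array 1 and -1.29 on array 2, so the arrays contradicted each other. Block-normalized it had 0.22 and -0.59. Ndufs3, of the ubiquinone-binding module, had a mean of 0.23 ± 0.42, and Ndufs7, which holds the last iron-sulfur cluster, had -0.28 ± 1.24. Ndufs8 had -0.49 on array 1 and 0.97 on array 2, an order that block loess kept at -0.37 and 0.75. None of the 7 passed the size rule.

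The 30 accessory members, which surround the core, had a median of 0.01, and 0.02 block-normalized. Ndufa4 had the lowest mean of any member, -1.26 ± 2.31, made of 0.37 on array 1 and -2.90 on array 2. Its signals were 12.08 and 8.56 in the transgenic pool, against 11.70 and 11.46 in the wild-type pool, so that 1 transgenic value decides the mean. Block-normalized it had 0.41 and -1.35. Ndufa4 is named as a complex I subunit but has been assigned to cytochrome c oxidase, and counting it there gave medians of 0.01 for complex I (36 genes) and 0.08 for complex IV (13 genes). Ndufa9, a subunit next to the ubiquinone site, had 0.14 and -1.60, and Ndufa11, of the membrane arm, had -0.40 and -1.19. Block-normalized, their means were -0.09 ± 0.45 and -0.04 ± 0.38. Both stand in the region of array 2 described above. The highest mean in complex I was that of Ndufb7, at 0.40 ± 0.36, and 0.24 ± 0.09 block-normalized. Ndufa13, also known as Grim-19, had 0.21 ± 0.34. Ndufs4, needed for a stable NADH-binding module, had 0.73 and -0.66, and 0.16 ± 0.04 block-normalized.

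Complex II, succinate dehydrogenase, had the same sign in all 4 members by mean, each below 0 with either loess and in the software's ratios. Of all 10434 detected genes, 6198 were below 0 by mean with whole-array loess, 5990 block-normalized and 6429 in the software's ratios. The flavoprotein Sdha had -0.09 and -0.73 (mean -0.41 ± 0.46), and a separate Sdha probe elsewhere on the array, whose transgenic signal was above background on 1 array, had -0.43 and -0.43. Block-normalized, the means of the probes were -0.32 and -0.45. The iron-sulfur subunit Sdhb had -0.27 and 0.04. The membrane anchors Sdhc and Sdhd had 0.53 and -0.72, and 0.28 and -0.60. With whole-array loess only Sdha was below 0 on both arrays. Block-normalized, Sdhb (-0.08 and -0.13) and Sdhc (-0.0014 and -0.42) were so too, and in the software's ratios Sdhb (-0.13 and -0.06). None was 1.5-fold lower on both arrays in any of these ratios.

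Complex III, the cytochrome bc1 complex, had members on both sides of 0. Uqcrfs1, the Rieske iron-sulfur protein, was the lowest of the listed complex III genes, with signals of 10.32 and 10.20 in the transgenic pool, against 10.98 and 10.51 in the wild-type pool. Both transgenic values lay below both wild-type values, and the ratios were -0.66 and -0.31 (mean -0.49 ± 0.25), or -0.31 and -0.44 block-normalized. The core proteins Uqcrc1 and Uqcrc2 had 0.26 ± 0.34 and -0.04 ± 0.35. A separate Uqcrc1 probe lay in the region of array 2 described above and had -0.33 and -1.20, but 0.02 ± 0.37 block-normalized. The small subunits Uqcr11 and Uqcrq were higher on both arrays, at 0.44 and 0.46 and at 0.27 and 0.45. For Uqcr11 the block-normalized values were 0.62 and -0.09, so its agreement across arrays was not kept. Uqcrq had 0.12 and 0.50. Uqcrh, the hinge protein, had -0.36 ± 0.40, and -0.0083 ± 0.26 block-normalized.

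Complex IV, cytochrome c oxidase, had 12 detected members. Its highest, and the highest mean ratio of the 78, was Cox7a2l, a factor that joins complexes III and IV in supercomplexes. Cox7a2l had signals of 12.03 and 12.03 in the transgenic pool, against 11.53 and 11.29 in the wild-type pool. Both transgenic values lay above both wild-type values. The ratios were 0.50 and 0.74, a mean of 0.62 ± 0.17 and 1.54-fold higher, with array 1 below the 1.5-fold limit of 0.58. Block-normalized ratios were 0.58 and 0.43, and the software's were 0.57 and 0.56, so the direction and near size held in all 3. Its neighbours on the slide had medians of -0.10 and 0.40.

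The forms known from most tissues did not pass the size rule. Cox4i1, the ubiquitous form of subunit 4, had 0.15 ± 0.09, Cox5a had -0.0050 ± 0.10, Cox5b had 0.21 ± 0.20 and Cox6a1 had -0.02 ± 0.13. Cox7a2, the liver form of subunit 7a, had 0.24 ± 0.68, with 0.35 ± 0.61 for its other probe. Cox8a, the ubiquitous form of subunit 8, had 0.29 ± 0.53, and 0.04 ± 0.05 block-normalized. Cox6b1 had -0.20 ± 0.47. Cox6c had 1.31 on array 1 and -1.29 on array 2, and 0.20 ± 0.47 block-normalized.

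The tissue-restricted forms were weak or not detected. Cox4i2 (lung), Cox7b2 and Cox8c (testis) were above background in no channel, and Cox6a2 (heart and skeletal muscle) only in the transgenic pool on array 1. No fold change is given for these 4. Cox6b2, a testis form, was detected as given above. Its log2 signals were 7.37 and 7.51 in the transgenic pool, against 6.61 and 7.18 in the wild-type pool, and its ratios were 0.76 and 0.34 (mean 0.55 ± 0.30). Block-normalized it had 0.69 and 0.52, the highest member by that mean, and the software's ratios of 1.06 and 0.89 put it past the size rule, against 2.37% of detected genes. The net intensities behind these were 109 and 39.5 in the transgenic pool, against 50.5 and 123 in the wild-type pool.

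**Figure D3:**
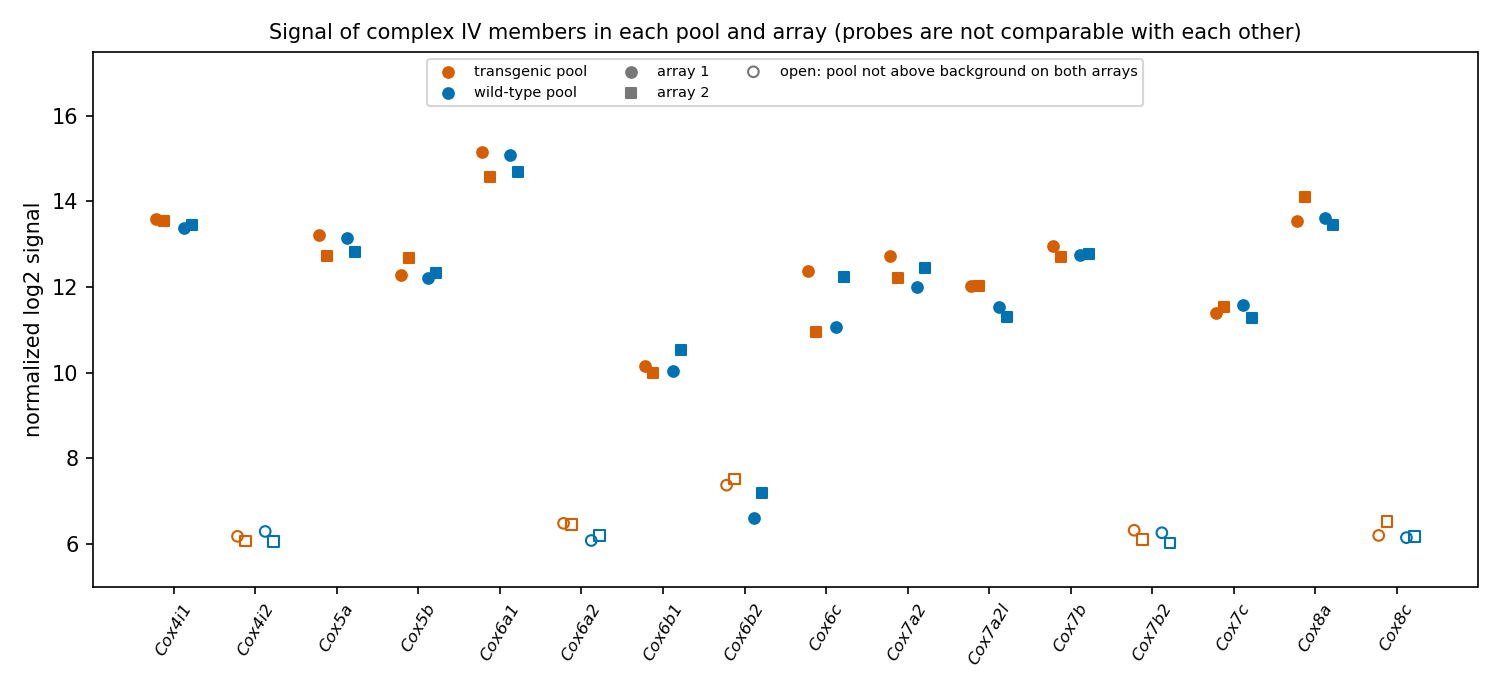
Normalized log2 signal of the 16 complex IV genes in the transgenic pool (left of each pair, orange) and the wild-type pool (right, blue) on array 1 (circles) and array 2 (squares), with open symbols where the pool was not above background on both arrays. Cox4i2, Cox6a2, Cox7b2 and Cox8c are open in both pools, Cox6b2 is open in the transgenic pool, and for Cox7a2l both transgenic values lie above both wild-type values.

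Of the muscle and brown fat isoforms that the list leaves out, 1 was lower in the transgenic pool. Cox8b had ratios of -1.80 and -0.98 (mean -1.39 ± 0.58) and passed the size rule as lower, also block-normalized (-1.56 and -1.32). Cox7a1 had 0.10 and -0.68 and did not pass. Of the 5 brown fat markers, which include Cox7a1 and Cox8b, 4 were detected. Of these, 3 passed as lower (Cox8b, Ucp1 and Cidea), against 1.3% of all detected genes. Ucp1, the uncoupling protein of brown fat, had log2 signals of 6.29 and 6.72 in the transgenic pool, against 7.70 and 7.64 in the wild-type pool (ratios -1.41 and -0.92). Cidea, a lipid droplet protein, had 6.55 and 6.73 in the transgenic pool, against 7.83 and 8.06 in the wild-type pool (ratios -1.28 and -1.33). For each of the 4 the transgenic signal was above background on 1 array and the wild-type signal on 2, so they were detected through the wild-type pool, and the sizes rest partly on transgenic signals near background. Elovl3, the fifth, was in no channel. The log2 of the summed signals of the 4 was 9.06 to 9.16 in the transgenic pool, against 10.04 to 10.13 in the wild-type pool. Of 5 adipocyte markers 4 passed as lower, against the same 1.3%. For Adipoq, Cfd and Plin1 the transgenic signal was likewise above background on 1 array, so they too were detected through the wild-type pool. For the adipocyte list the log2 of the summed signals was 10.46 to 10.66 in the transgenic pool, against 12.60 to 12.79 in the wild-type pool. Of 9 skeletal muscle markers 5 were detected and none passed, with a median of 0.04. None of 4 myeloid markers passed, with a median of -0.57. In the software's ratios all 4 myeloid markers (median -1.61) and 5 of 5 adipocyte markers passed as lower, against 6.02% of detected genes. The part that adipose cells had in the ratios of the 78 members was not tested.

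In ATP synthase no gene passed in either direction. The catalytic F1 part (5 genes) had a median of -0.27 with whole-array loess, and -0.08 block-normalized. Atp5a1 and Atp5b, its alpha and beta subunits, had -0.29 ± 0.81 and -1.09 ± 1.41. The Atp5b value came from -0.09 on array 1 and -2.08 on array 2, with signals of 14.01 and 11.47 in the transgenic pool, against 14.10 and 13.55 in the wild-type pool. Block-normalized it had -0.07 and 0.38. The other probes of Atp5b had means of -0.90 ± 0.52 and -0.06 ± 1.07, and -0.77 ± 0.11 and -0.02 ± 0.46 block-normalized, so the probes of this gene did not give 1 answer. The gamma, delta and epsilon subunits Atp5c1, Atp5d and Atp5e had -0.27 ± 0.08, 0.09 ± 0.43 and 0.47 ± 0.19. For Atp5e the block-normalized mean was 0.11 ± 0.05.

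The 3 genes of the proton-carrying c ring encode the same mature protein. Atp5g1 had 0.11 ± 0.31, Atp5g2 had 0.30 ± 1.21 and Atp5g3 had 0.07 ± 0.08, none beyond 1.5-fold on both arrays. All were above 0 by mean with whole-array loess, but block-normalized Atp5g1 had -0.06 ± 0.20. A separate Atp5g2 probe had -0.09 ± 0.33, and -0.22 ± 0.09 block-normalized, against 0.22 ± 0.23 for the chosen probe. The median of the 3 genes was 0.11, and 0.22 block-normalized. The other 9 members, of the stalks and membrane part, had a median of 0.09, and -0.01 block-normalized. Of these, Atp5pb, the b subunit of the peripheral stalk, had -0.38 and -0.52, and -0.12 ± 0.02 block-normalized. Atp5o, at the top of the peripheral stalk, had 0.12 ± 0.18. Atp5j, of the same stalk, showed the widest contradiction after Ndufa4 and had 1.45 on array 1 and -1.35 on array 2. Block-normalized it had 0.83 and -0.01.

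**Figure D4:**
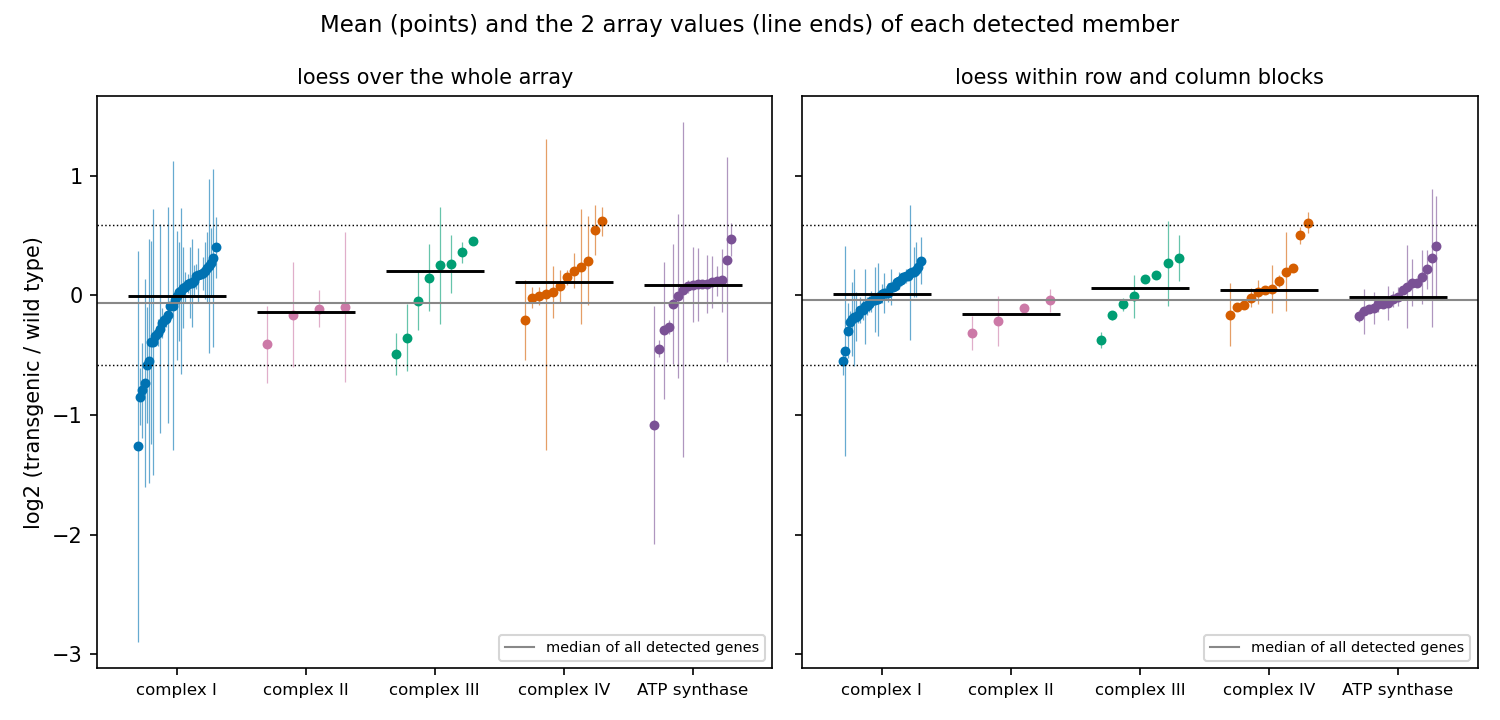
Mean log2 ratio of transgenic over wild type (points) of each detected member, with the values of the 2 arrays at the line ends, by complex, after loess over the whole array (left) and within blocks (right). Black bars are medians per complex, the grey line is the median of all detected genes, and dotted lines mark 1.5-fold; the medians lie between -0.14 and 0.20 on the left and between -0.16 and 0.06 on the right, and the lines shorten on the right.

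Separate probes of the same gene gave a further measure of error. There were 17 members with more than 1 probe. In 9 of them the probes' means differed in sign with whole-array loess, and in 6 after block loess. The median range between a gene's probes was 0.27 and 0.15, and the largest, for Atp5b, was 1.03 and 0.92.

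None of the detected genes that work with the chain passed the size rule, in lists drawn up with earlier results of these data known. Of all detected genes 0.91% passed as higher and 1.3% as lower, so few calls would be had in lists of this size. No gene passed the size rule in either direction among 39 detected assembly factors (median -0.08). The same held for 16 genes of cytochrome c, cytochrome c1, ubiquinone synthesis and electron entry (-0.15) and 18 of the citrate cycle (-0.09). It also held for 10 of adenine nucleotide and phosphate transport (0.06), 28 of protein import (-0.22) and 78 of the mitochondrial ribosome (-0.09). Cyc1, the cytochrome c1 gene of complex III, had 0.30 and -1.40, and -0.04 and -0.78 block-normalized. The 17 regulators of mitochondrial gene expression had a median of -0.0090 and none passed. Of these regulators, 3 were named for their roles after the values were seen. Ppargc1a, a coactivator of mitochondrial biogenesis, had 0.18 ± 0.01. Block-normalized it had 0.33 and 0.06, and in the software's ratios 0.40 and -0.15, so the close agreement of its arrays was not kept. Tfam, the mitochondrial DNA packaging factor, had -0.0013 ± 0.63, and Esrra, an oestrogen-related receptor, had 0.09 and -1.41. For Ppargc1a and Esrra the transgenic signal was above background on 1 array only. In the scanner software's ratios Gabpb1 and Polg among the regulators and Mrpl22 and Mrps18b among the ribosomal genes passed as lower, against 6.02% of detected genes. These 4 were named after their values were seen. Cs, citrate synthase, had 0.62 on array 1 and -2.93 on array 2, with its transgenic signal above background on 1 array only. Surf1, an assembly factor of complex IV, had 0.28 and -1.79.

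Factors known to drive respiratory chain genes include NRF1, the ETS factor GABPA, YY1 and oestrogen-related receptors, and their core motifs were counted on both strands in RefSeq promoters of 300 bases. Entries were found for 66 of the 78 detected members. GCATGCG, the core for NRF1, stood in 10 of them (15.2%), against 6.50% of detected genes and 3.64% of all 27025 promoters. CCGGAAG, for GABPA and other ETS factors, stood in 16 (24.2%), against 18.6% and 9.12%. ATGGCGG, for YY1, stood in 9 (13.6%), against 8.66% and 4.19%, and AAGGTCA, for oestrogen-related receptors, in 8 (12.1%), against 3.20% and 4.66%. At least 1 of them stood in 34 member promoters (51.5%), against 32.1% of detected genes, at median GC contents of 58.5% and 61.0%. These are matches of letters, not sites. A detected and a not detected complex IV gene are shown, Cox6a1 (chr5:115348909-115349208, minus strand) and Cox7b2 (chr5:71548156-71548455, minus strand), from GRCm38.p6. Capitals mark the NRF1 core, read on both strands where the copies overlap, and the ETS core on the opposite strand in Cox6a1, and Cox7b2 holds none.
Cox6a1: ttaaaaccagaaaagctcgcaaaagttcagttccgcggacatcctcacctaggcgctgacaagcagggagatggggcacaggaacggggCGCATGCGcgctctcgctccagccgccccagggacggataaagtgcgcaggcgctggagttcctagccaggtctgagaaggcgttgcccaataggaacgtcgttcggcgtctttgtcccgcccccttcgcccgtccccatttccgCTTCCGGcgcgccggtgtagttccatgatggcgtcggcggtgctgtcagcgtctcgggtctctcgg
Cox7b2: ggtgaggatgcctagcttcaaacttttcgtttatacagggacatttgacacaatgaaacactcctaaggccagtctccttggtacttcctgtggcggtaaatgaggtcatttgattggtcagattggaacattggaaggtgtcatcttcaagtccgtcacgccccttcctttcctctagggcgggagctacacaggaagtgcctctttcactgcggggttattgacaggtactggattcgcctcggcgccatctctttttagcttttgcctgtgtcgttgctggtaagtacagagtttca

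Calls among the members were few under other processings. With a normexp offset of 16, 0 members were higher and 1 lower (1.43% and 2.3% of detected genes), and with scaling between arrays 0 and 1 (0.93% and 1.28%), in each case Ndufa10. Without background subtraction 0 were called in either direction (0.834% and 0.91%), as with loess within bands of rows (0.795% and 1.26%) and in the authors' deposited table (2.86% and 1.94% of its genes). That table has values for 76 of the members, and for neither Ndufb5 nor Cox6b2, which passed as higher in the software's ratios. Median centring without loess called 0 higher and 3 lower (0.0192% and 5.31%). At 2-fold 0 members passed (0.24% and 0.355%), and at 1.2-fold 5 were higher and 5 lower (4.34% and 6.85%). The order of the complexes by median varied with the processing. By the mean of the arrays, complex II had the lowest median of the 5 in each of the 9 processings plotted, and complex III the highest in all but the one without background subtraction, where complex IV was higher. This order did not hold on array 1 alone, where complex II was at 0.097, above all but complex IV at 0.17, and complex III was the lowest at -0.026.

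**Figure D5:**
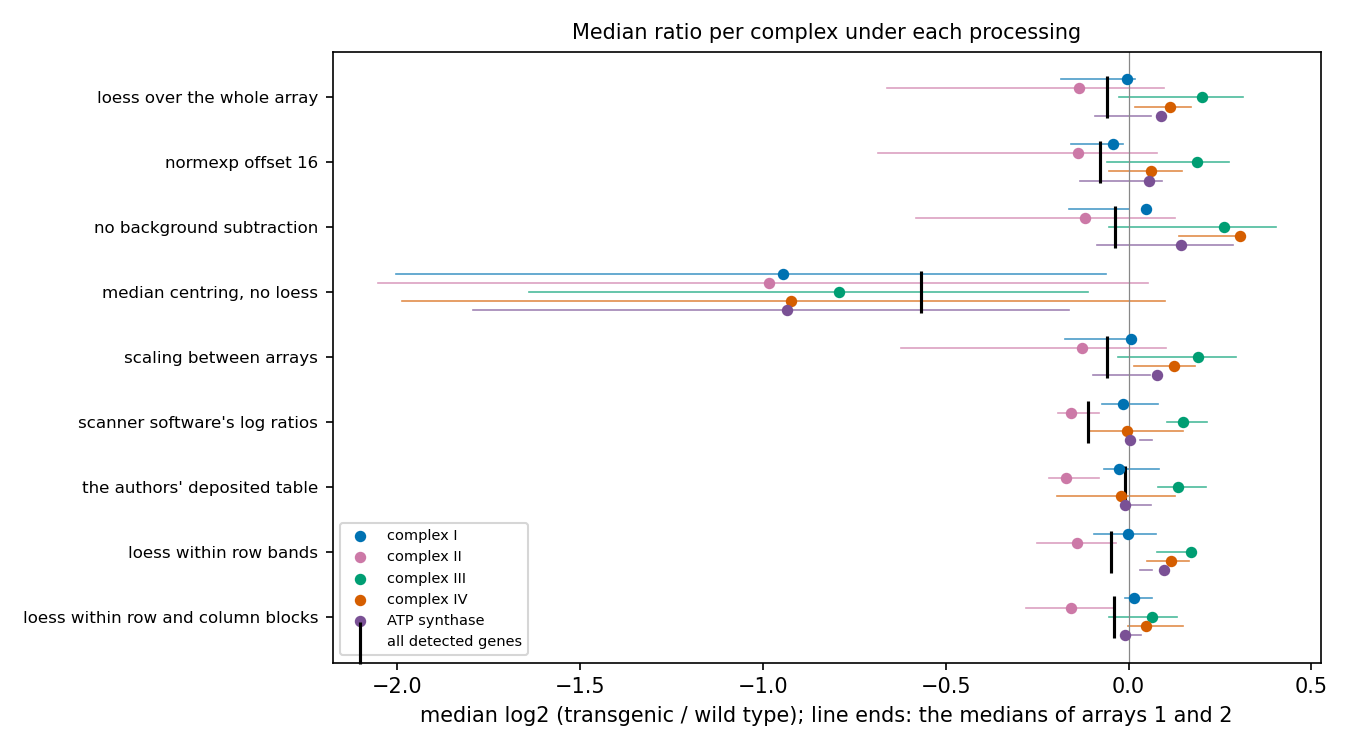
Median log2 ratio of transgenic over wild type per complex (points) under 9 processings, with line ends at the medians of arrays 1 and 2 and a black tick at the median of all detected genes. Median centring without loess moves all detected genes to -0.57 and the complexes to between -0.98 and -0.79; under the others every complex lies between -0.17 and 0.30.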

How the data were processed

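Pooled total RNA was labelled with a low-input kit, per the labels' protocols. The 2-colour Agilent arrays were read by Feature Extraction 11.0.1.1, as the headers state. Deposited spot and background values are median pixel intensity in each dye. The deposited log10 ratio, of Cy5 over Cy3, rests on background-subtracted and dye-normalized signals, per the file headers. The authors' deposited table holds log2 ratios; its columns matched the scanner software's ratio of transgenic over wild type with a correlation and a slope of 1 for either array. The sources used here do not give its filter. Of the detected genes, 6046 have values in it, the same number as were above background in both pools on both arrays.

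Direction was taken from the dyes in the labels. Medians served as the signal, since the files used here lack mean signals. Background was corrected with normexp (offset 50) and arrays were normalized by loess in limma 3.58.1 (R 4.3.3), with control and outlier spots at weight 0. Loess within 14 bands of rows and within 70 blocks was added after the data were seen. Loess within row bands and the size rule were run on simulated data. Probes were named through RefSeq accessions (GRCm38.p6), which matched 27816 probes and left 13358 unnamed, and each gene took its probe with the highest mean intensity. The array annotation cites another build, so gene coordinates are not given. Saturation was absent. That there were only 2 arrays limits the precision.

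A member was called when both arrays showed at least 1.5-fold in 1 direction. The members and lists were chosen with earlier results of these data known. Given in full were members past the size rule, up to 4 per complex with the largest absolute mean ratio, core subunits and isoform pairs, the brightest per complex, up to 3 whose arrays disagreed most, and up to 3 per related list; a few genes that this rule allows are not reported here. Tables and figures were made in Python 3.11.15 (numpy 2.4.6, pandas 2.3.3, matplotlib 3.10.9).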

Additional observations from a re-analysis of the deposited data

How the results depend on the processing

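No paired analysis was possible because the only samples are technical arrays of 1 pair of pools. Ndufa10 was the 1 member called lower; the count was 0 without background subtraction, in the scanner software's ratios, in the authors' deposited table, with loess within row bands or within row and column blocks, and at 2-fold. Detection in both pools, no detection filter and the mean over a gene's probes each left Ndufa10 as the 1 call. The count was 3 with median centring (Atp5l, Ndufa10 and Uqcrfs1), and at 1.2-fold 5 members were lower and 5 higher. In the software's ratios 1 member, Cox6b2, was higher. On single arrays 5 to 13 members were higher and 2 to 21 lower. The member median ranged from -0.082 to 0.051 on single arrays and was 0.14 without background subtraction. Single arrays gave complex I -0.18 to 0.017, complex II -0.66 to 0.097, complex III -0.026 to 0.31, complex IV 0.016 to 0.17 and ATP synthase -0.092 to 0.061, so that only complex IV kept its sign on both. The complex IV median was 0.30 without background subtraction, -0.0045 in the software's ratios and -0.020 in the deposited table, where it rests on 11 genes, without Cox6b2. With median centring all detected genes had a median of -0.57, the members -0.94, complex I -0.94, complex II -0.98, complex III -0.79, complex IV -0.92 and ATP synthase -0.93. The weak Cy5 signal of array 2, which carried the transgenic pool, limits the precision of dim members such as Ndufa10 and Cox6b2.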
